A study of Mus musculus with 40 samples.

Results

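Colon endothelium was read here through 10 genes, Pecam1, Cdh5, Vwf, Emcn, Esam, Egfl7, Plvap, Sele, Lyve1 and Prox1, chosen by symbol as genes known to mark endothelial cells, and all 10 were found among the 45706 genes of the deposited tables. Endothelial cells line blood and lymphatic vessels. They are held together by junction proteins, they store clotting factors, and in the colon their capillaries are fenestrated so that nutrients and fluid can cross. When inflamed, the venules among them display selectins that slow passing leukocytes, and lymphatic vessels carry their own identity genes. None of the 10 genes was used as a sorting marker.

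RNA had been sequenced from 40 libraries, 4 in each of 10 groups. Stromal cells (CD45- EpCAM-) and epithelial cells (CD45- EpCAM+) had been sorted from colon tumors and from healthy colon, and neutrophils (CD45+ CD11b+ MHCII- Ly6G+ Ly6C-low) and monocytes (CD45+ CD11b+ MHCII- Ly6G- Ly6C-high) from tumors and from the blood of mice with and without tumors. Tumor-bearing mice were labeled C57Bl6/Sv129, with a number that counted up from sample to sample, carried Cdx2CreERT2 and Apc fl/fl, and had received 1 intraperitoneal dose of Tamoxifen at 25 mg/kg at 8 to 10 weeks of age. The Cdx2 promoter drives this Cre recombinase in intestinal epithelium, so that Apc, a brake on Wnt signaling, is lost in epithelial cells and not by design in vessels. Healthy mice were C57Bl6, without transgene or agent, and their age was not given in the labels, so tumor, strain, transgene and Tamoxifen cannot be told apart in any comparison of tumor with healthy mice. Titles name the animals, some animals gave more than 1 cell type, and some blood libraries pooled 2 animals. P-values measured the spread between these libraries only.

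Endothelial cells belong to the stromal gate, and libraries of that gate stood apart from each other. Tumor stromal replicates 1 and 2 held epithelial RNA: the median of 8 epithelial genes (Epcam, Cdh1, Cdh17, Vil1, Krt8, Krt18, Krt19 and Krt20) was 93.9% and 51.9% of the mean level in sorted tumor epithelial cells, against 20.5% and 12.1% in replicates 3 and 4. In healthy stromal replicates 1 to 3 this share was 0.12% to 0.409%, and in replicate 4 it was 7.32%. Depth was 10717873 to 38002939 counts on genes per library, and mitochondrial genes took 5.34% to 83.9% of them. Counts of called members that rest on tumor stromal replicates 1 and 2 or on healthy stromal replicate 4 are given with and without them.

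Positions of the members are in mouse build GRCm38, the same assembly as mm10, with gene bounds of GENCODE M21. The junction genes are Pecam1 (ENSMUSG00000020717, chr11:106654217-106750628, minus strand), Cdh5 (ENSMUSG00000031871, chr8:104101625-104144511, plus) and Esam (ENSMUSG00000001946, chr9:37528078-37538319, plus). Vwf (ENSMUSG00000001930) spans chr6:125546774-125686679 (plus) and Egfl7 (ENSMUSG00000026921) spans chr2:26580014-26593120 (plus). Emcn (ENSMUSG00000054690) spans chr3:137341067-137432185 (plus) and Plvap (ENSMUSG00000034845) spans chr8:71497765-71511752 (minus). Sele (ENSMUSG00000026582) spans chr1:164048234-164057677 (plus), Lyve1 (ENSMUSG00000030787) spans chr7:110850607-110863239 (minus) and Prox1 (ENSMUSG00000010175) spans chr1:190118035-190170714 (minus). Cdh5 and Prox1 overlap antisense transcripts, Plvap overlaps Gtpbp3 and Egfl7 overlaps Agpat2, Gm20532 and the host position of Mir126a and Mir126b. Whether counting used strand was not stated, so reads in these overlaps are uncertain.

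Endothelial genes are known to be bound by ETS family transcription factors such as Erg and Fli1, whose sites hold a GGAA core. RefSeq promoter windows of 300 bases (250 before and 50 after a start site, GRCm38.p6) were at hand for 4 of the 10 members. They are shown because Emcn and Egfl7 moved together across stromal libraries, while Sele and Prox1 each went their own way, as described further on. Letters in capitals mark AGGAAG, or the same site read on the other strand.
Emcn, chr3:137340828-137341127, plus strand: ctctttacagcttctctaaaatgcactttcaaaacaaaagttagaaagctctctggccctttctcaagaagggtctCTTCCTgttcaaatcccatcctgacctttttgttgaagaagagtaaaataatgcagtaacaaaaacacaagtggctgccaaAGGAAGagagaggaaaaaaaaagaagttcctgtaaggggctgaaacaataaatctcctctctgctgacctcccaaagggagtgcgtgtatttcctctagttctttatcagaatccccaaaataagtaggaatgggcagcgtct
Egfl7, chr2:26580833-26581132, plus strand: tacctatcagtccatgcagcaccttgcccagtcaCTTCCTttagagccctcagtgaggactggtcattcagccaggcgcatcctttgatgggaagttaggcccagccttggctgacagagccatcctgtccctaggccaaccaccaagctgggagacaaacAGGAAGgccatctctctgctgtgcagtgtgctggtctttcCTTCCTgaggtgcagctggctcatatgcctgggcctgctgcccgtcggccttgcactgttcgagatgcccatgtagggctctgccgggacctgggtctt
Sele, chr1:164047984-164048283, plus strand: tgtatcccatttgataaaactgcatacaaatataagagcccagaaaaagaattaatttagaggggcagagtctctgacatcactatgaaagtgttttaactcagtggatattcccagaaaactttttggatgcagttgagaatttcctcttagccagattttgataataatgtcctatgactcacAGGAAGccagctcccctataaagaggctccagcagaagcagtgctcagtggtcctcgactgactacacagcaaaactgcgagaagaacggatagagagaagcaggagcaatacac
Prox1, chr1:190170778-190171077, minus strand: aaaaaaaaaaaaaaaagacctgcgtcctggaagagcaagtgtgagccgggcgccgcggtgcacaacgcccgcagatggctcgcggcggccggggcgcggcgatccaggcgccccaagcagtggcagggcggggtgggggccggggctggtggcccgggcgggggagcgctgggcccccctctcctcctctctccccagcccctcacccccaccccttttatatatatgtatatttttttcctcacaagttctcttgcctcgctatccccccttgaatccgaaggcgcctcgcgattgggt
The Egfl7 window shown held 3 AGGAAG cores, counted on both strands, that of Emcn held 2, that of Sele held 1 and that of Prox1 held 0. Shorter matches of GGAA alone were not counted. Other windows of Egfl7, not shown, held 2 and 0, so its rank depends on the window chosen. With the related core CGGAAG also counted, on both strands, 4 of 7 windows of these 4 members and 8 of 16 windows of 14 other endothelial genes held a core. Over all 32851 windows the share was 46.5%, with AGGAAG in 35.4% and CGGAAG in 16.9%, so the endothelial windows lay close to the background. The GATA motif AGATAA was in none of the 7 windows and in 11.2% of all windows, and the KLF/SP motif GGGTGG was in 2 of the 7 (1 of Egfl7 and the one shown for Prox1) and in 31.5% of all. A match of letters is a description and no evidence of binding.

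In healthy colon, endothelial genes were higher in stromal than in epithelial cells. For 9 of the 10 members the level in healthy stromal cells was higher than in healthy epithelial cells at an adjusted p below 0.05 and a log2 fold change above 1.5, which is how a gene was called here (edgeR's quasi-likelihood test, Benjamini-Hochberg adjusted over all genes tested). Of all genes tested, 30.9% were called in this comparison, 19.4% as higher in stromal cells. The median log2 fold change of the 10 members was 6.04, against 0.14 over all genes. Without healthy stromal replicate 4, 9 members and 33.5% of all genes were called, with log2 fold changes of the junction, secreted and capillary genes from 4.84 (Esam) to 8.54 (Emcn). Lymphatic Prox1 was the member that was not called (log2 fold change 0.53, SE 0.80, adjusted p = 0.646).

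Among junction genes, Cdh5, which encodes VE-cadherin, was at 34.8, 31.9, 44.3 and 4.62 RPKM (read counts scaled to gene length and library size) in healthy stromal replicates 1 to 4, and at 0.00339 to 0.205 RPKM in healthy epithelial cells. Pecam1, the CD31 antigen used to stain vessels, was at 24.9, 24.8, 31.4 and 3.84 RPKM against 0.0131 to 0.313. Replicate 4 was the low library for both genes, yet the groups did not overlap. The log2 fold change was 7.04 for Cdh5 (SE 1.33, adjusted p = 0.0027) and 6.29 for Pecam1 (SE 1.17, adjusted p = 0.00244). Esam, another junction adhesion molecule, was at 5.64, 5.16, 9.79 and 0.796 RPKM against 0.0283 to 0.207 (log2 fold change 4.59, SE 0.70, adjusted p = 9.27e-04).

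Vwf, the clotting protein stored in endothelial granules, was at 5.63, 7.49, 8.5 and 1.26 RPKM in healthy stromal cells and at most 0.067 in healthy epithelial cells. Egfl7, a secreted protein of growing vessels, was at 4.37, 4.86, 8.3 and 0.359 RPKM against at most 0.0768. Emcn, a sialomucin of capillary and venous endothelium, was at 9.55, 9.81, 9.83 and 1.36 RPKM against at most 0.0293. Replicate 4 was the lowest for each of these 3 genes, and replicates 1 to 3 lay close together for Emcn. Plvap, which forms the diaphragms of fenestrated capillaries, was at 38.4, 14.5, 45 and 8.09 RPKM against at most 0.0996. Their log2 fold changes were 5.79, 5.78, 8.23 and 7.68, with standard errors of 1.12, 1.10, 1.26 and 1.47.

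Sele, the E-selectin of activated venules, was at 2.68, 2.17, 3.76 and 1.01 RPKM in healthy stromal cells and had at most 1 count in any healthy epithelial library. Its 2001 stromal and 2 epithelial counts, each set against the total of their group, gave a ratio of 1270 with a 95% counting interval of 350 to 10500. The log2 of the lower bound, 8.45, left the median of the members as it was. Lyve1, the hyaluronan receptor of lymphatic vessels, was at 22.2, 4.22, 1.01 and 4.43 RPKM against 0.926, 0.123, 0.072 and 0.101. Its log2 fold change of 3.59 (SE 1.13, adjusted p = 0.0315) was the weakest of the calls and fell short of the threshold without any 1 of 5 libraries, namely healthy stromal replicate 1 (adjusted p = 0.11) or 2 (0.0501) and healthy epithelial replicate 2 (0.0716), 3 (0.0641) or 4 (0.061). Prox1, the transcription factor that sets lymphatic identity, was at 3.87, 0.964, 0.82 and 1.12 RPKM in healthy stromal cells and at 1.68, 0.251, 0.233 and 0.136 in healthy epithelial cells, and the groups overlapped.

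All 23 other endothelial genes of a fixed list (growth factor receptors such as Kdr, Flt1 and Tek, transcription factors such as Erg and Sox17, and others) were also called higher in healthy stromal than in healthy epithelial cells. Ackr1, a chemokine receptor of venules, was at 12.1, 12.9, 10.1 and 13.1 RPKM and was listed at 0 in all 4 epithelial libraries. The junction gene Cldn5 was at 0.216 to 1.11 RPKM and was also listed at 0 there, and Robo4, a vessel guidance receptor, was at 2.42 to 18.3 RPKM against at most 0.0338. Mmrn1, a gene of lymphatic endothelium, was at 12.8, 2.28, 0.372 and 0.113 RPKM, in the same order over libraries 1, 2 and 3 as Lyve1. Library 4 broke this order, since Mmrn1 was lowest there and Lyve1, at 4.43 RPKM, was second highest. Healthy stromal replicate 1 thus had the highest levels of Lyve1, Prox1 and Mmrn1, and also the highest sum of 6 mural and smooth muscle genes, 159 RPKM against 37.9 to 67.6 in the others.

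**Figure D1:**
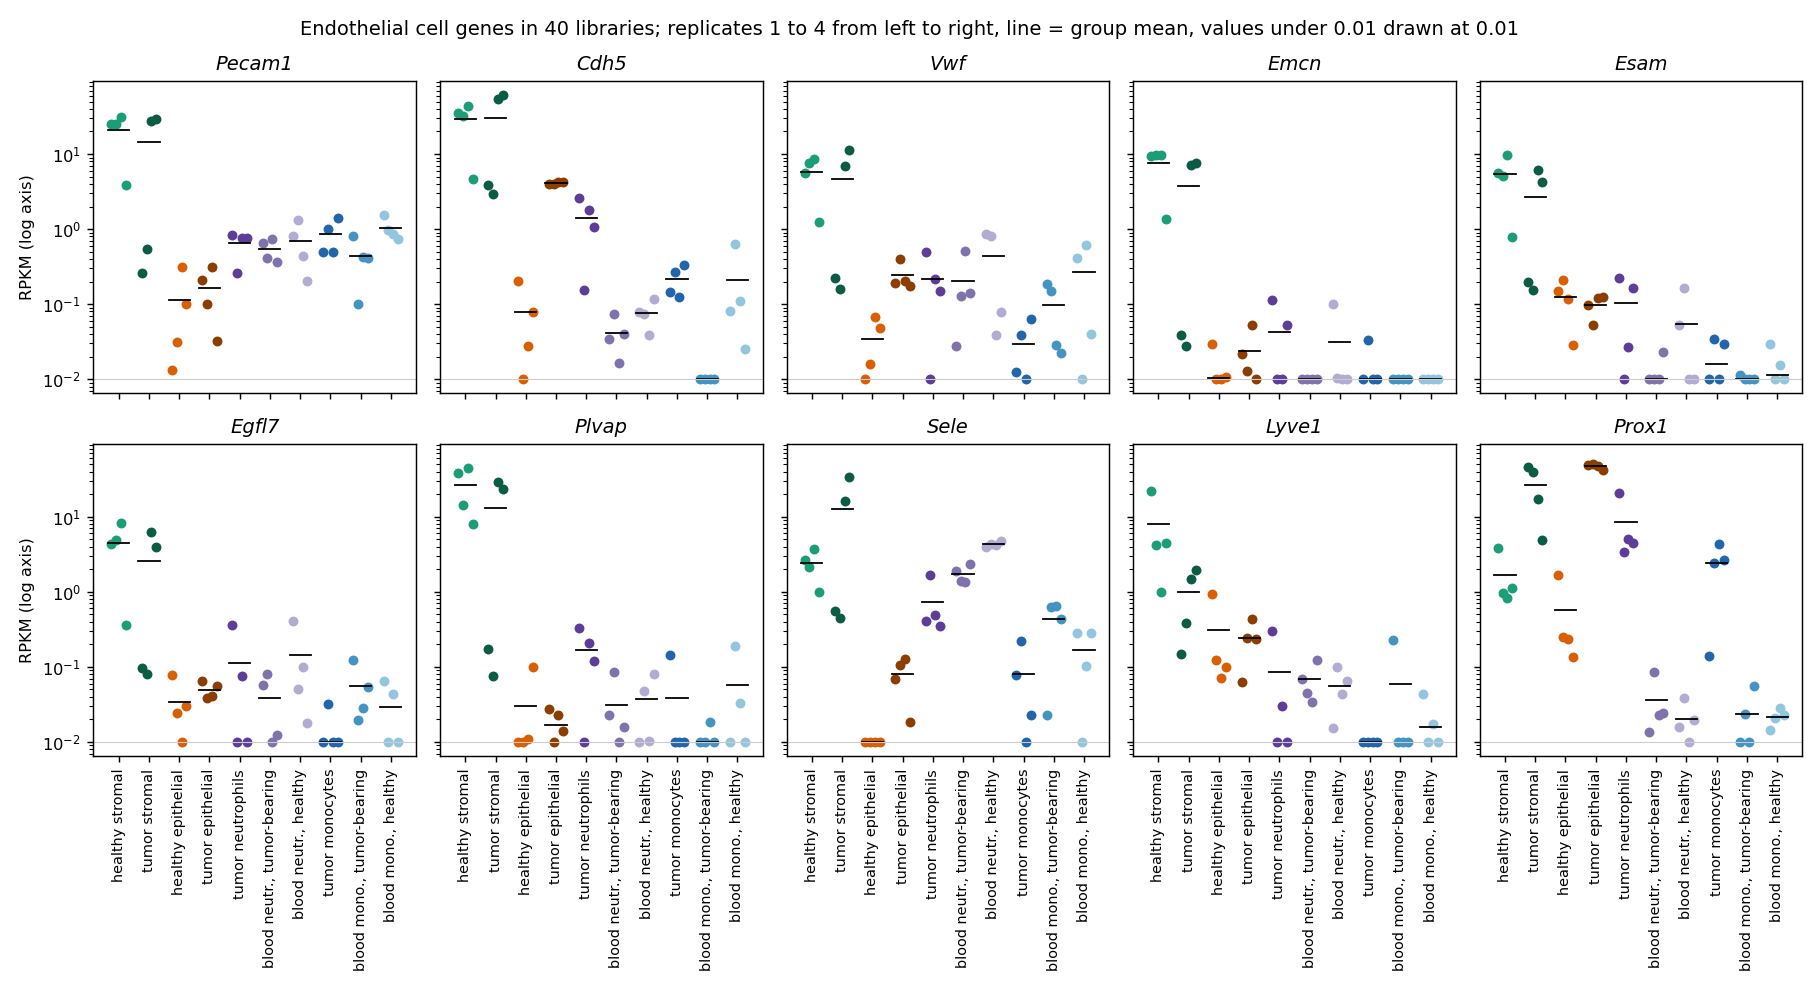
Level of each of the 10 endothelial genes in all 40 libraries, as RPKM on a log axis; each point is a library, replicates run from left to right, the line is the group mean, and values under 0.01 are drawn at 0.01. Most members are highest in the stromal groups, where tumor replicates 1 and 2 lie far below replicates 3 and 4, whereas Prox1 is highest in tumor epithelial cells and Sele in blood neutrophils reaches the level of healthy stromal cells.

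The comparison of tumor with healthy stromal cells asks whether vessel genes changed in the tumor. With all 8 libraries, 1 of 10 members was called, Prox1, which was higher in tumor stromal cells (log2 fold change 4.43, SE 0.85, adjusted p = 0.0159), while 8.4% of all genes tested were called. The median log2 fold change of the members was -0.37, against 0.03 over all genes. Without healthy stromal replicate 2, Prox1 missed the threshold (adjusted p = 0.0574) and no member was called.

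The 4 tumor libraries fell far apart. Pecam1 was at 0.263 and 0.542 RPKM in tumor stromal replicates 1 and 2 and at 28 and 29.7 RPKM in replicates 3 and 4, which is inside the range of healthy stromal replicates 1 to 3. Cdh5 was at 3.9, 2.97, 53.5 and 60.8 RPKM, so that replicates 3 and 4 exceeded every healthy library and replicates 1 and 2 were below every one. Esam was at 0.2, 0.155, 6.16 and 4.23 RPKM. The same split into low and high libraries was found for all 3 junction genes.

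The stored and secreted factors and the capillary genes split in the same way. Vwf was at 0.221, 0.159, 7 and 11.2 RPKM in tumor stromal replicates 1 to 4, and Egfl7 was at 0.0981, 0.0812, 6.29 and 3.91. Emcn was at 0.0387, 0.0276, 7.16 and 7.58 RPKM, the first pair resting on 12 and 10 counts and the second on 2332 and 2289. For Emcn, replicates 1 and 2 were at the level of tumor epithelial cells (0.00788 to 0.0523 RPKM). Plvap was at 0.174, 0.0746, 29.4 and 23.2 RPKM. These 7 genes had log2 fold changes from -0.76 (Emcn, SE 1.42) to 0.37 (Cdh5, SE 0.98), with adjusted p from 0.744 to 0.996, and the groups overlapped for each of them.

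Without tumor stromal replicates 1 and 2, the 7 log2 fold changes lay between 0.23 (Emcn) and 1.27 (Cdh5), and without healthy stromal replicate 4 as well they lay between -0.12 (Emcn) and 0.92 (Cdh5), where Cdh5 had an adjusted p of 0.0251 and stayed under the fold threshold. Among these 6 genes other than Cdh5, the adjusted p was at least 0.207 in that fit. The sign for single vessel genes thus depended on which libraries were kept. In a bulk sample, fewer endothelial cells and less RNA per endothelial cell cannot be told apart.

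Cells other than endothelium moved between the same libraries. The sum over 9 members (all but Prox1) was 5.6, 4.83, 155 and 176 RPKM in tumor stromal replicates 1 to 4 and 148, 105, 162 and 25.8 RPKM in healthy stromal replicates 1 to 4. The sum over 6 fibroblast genes (Col1a1, Col1a2, Col3a1, Dcn, Lum and Pdgfra) was 5.97, 24, 18.8 and 18.3 RPKM in tumor and 494, 648, 355 and 2010 RPKM in healthy libraries. So the sum of endothelial genes was 8.26 and 9.64 times that of fibroblast genes in tumor stromal replicates 3 and 4, and 0.0128 to 0.456 times in healthy libraries. Replicates 1 and 2, at 0.938 and 0.201, lay above and inside the healthy range. Healthy stromal replicate 4, the library with the lowest endothelial sum of its group, had the highest fibroblast sum. The epithelial sum was 219, 128, 48.6 and 26.9 RPKM in tumor libraries and 0.914 to 18.5 RPKM in healthy ones. More than 3 counts were found for 6 of 6 fibroblast genes in every stromal library, and for 8 of 8 epithelial genes in the tumor libraries and 5 to 8 of 8 in the healthy ones. What part these other cells had in the differences of endothelial genes was not tested.

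**Figure D2:**
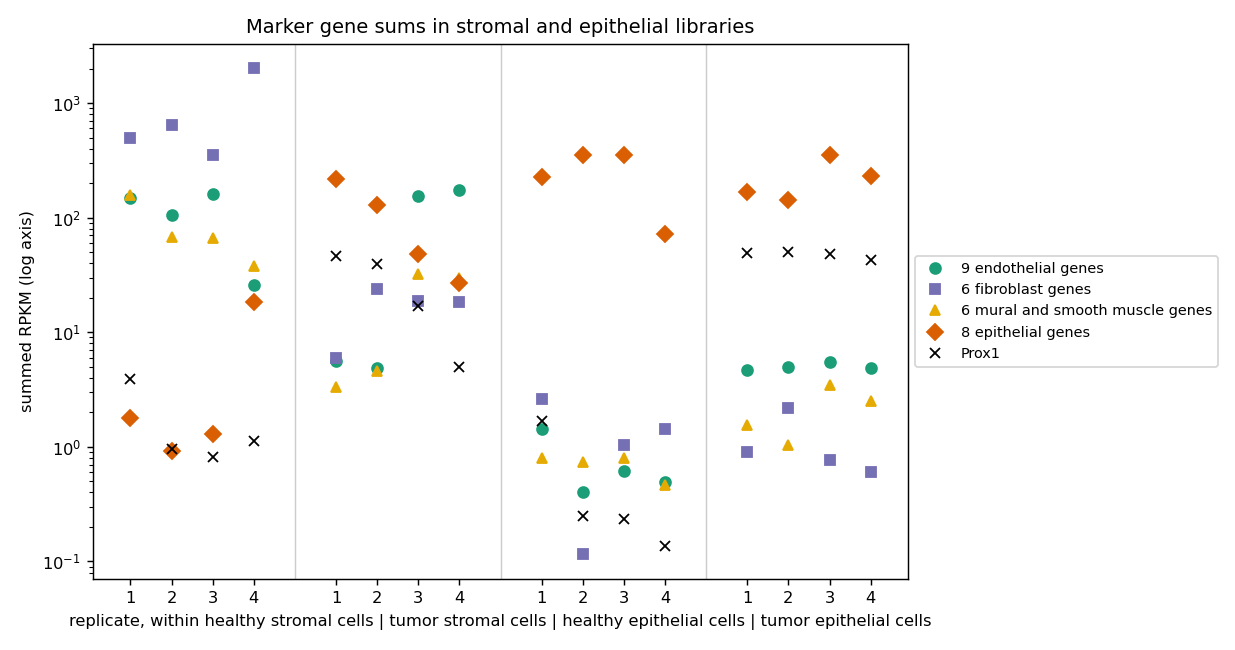
Summed RPKM (log axis) of 9 endothelial genes (the members without Prox1), 6 fibroblast, 6 mural and smooth muscle and 8 epithelial genes, and Prox1 alone, in each of the 16 stromal and epithelial libraries. In tumor stromal replicates 1 and 2 the endothelial sum is 5.6 and 4.83, near the 4.69 to 5.53 of tumor epithelial cells, and in replicates 3 and 4 it is 155 and 176, with fibroblast sums of 18.8 and 18.3.

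Sele differed from the other vessel genes. It was at 0.563, 0.443, 16 and 33.9 RPKM in tumor stromal replicates 1 to 4, so that replicates 3 and 4 were above every healthy stromal library (at most 3.76) and replicates 1 and 2 were below. With all libraries the log2 fold change was 2.71 (SE 1.20, adjusted p = 0.203). Without tumor stromal replicates 1 and 2 it was 3.68 (SE 0.50, adjusted p = 0.00931), and 3.42 (SE 0.36, adjusted p = 0.00102) without healthy stromal replicate 4 as well. Sele was then called beside Prox1, so that 2 of 10 members were called, both as higher. Of all genes, 5.73% were called in either direction without tumor stromal replicates 1 and 2.

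Relative to Pecam1 in the same library, Sele was at 2.14, 0.818, 0.573 and 1.14 in tumor stromal replicates 1 to 4 and at 0.108, 0.0878, 0.12 and 0.263 in healthy ones. These ratios did not overlap between the groups. Relative to Cdh5, however, the groups overlapped. Sele and Cdh5 were at 1.01 and 4.62 RPKM in healthy stromal replicate 4 and at 0.563 and 3.9 RPKM in tumor stromal replicate 1. In tumor epithelial replicates 1 to 4, Sele was at 0.07, 0.105, 0.126 and 0.0182 RPKM, on 5 to 32 counts. Pecam1 was at 0.213, 0.101, 0.311 and 0.0324 RPKM there. The ratio of Sele to Pecam1 in these epithelial libraries thus also lay above that of every healthy stromal library. The part of epithelial RNA in the ratios of tumor stromal replicates 1 and 2 was not tested. Selp, the P-selectin gene, whose protein also catches leukocytes, was at 0.528, 1.18, 18.6 and 54.1 RPKM in tumor and at 11.9, 6.07, 11.7 and 5.28 RPKM in healthy stromal cells. Relative to Pecam1, at 28 RPKM in tumor stromal replicate 3 and 3.84 RPKM in healthy stromal replicate 4, Selp overlapped between the groups. Selp was not called with all libraries and was called as higher without tumor stromal replicates 1 and 2 (log2 fold change 2.37, SE 0.49, adjusted p = 0.0332), the 1 gene of 23 in that fit. Without healthy stromal replicate 4 as well, Selp (2.20, SE 0.45) and Gpihbp1, a capillary lipase anchor (1.91, SE 0.37), were called as higher and the lymphatic gene Mmrn1 as lower. That fit was added after the data were seen. Its share of calls over all genes is not given here, so these calls cannot be set against it. Neutrophil genes were also higher in tumor stromal replicates 3 and 4 than in 1 and 2. The sum of 5 neutrophil genes (S100a8, S100a9, Csf3r, Cxcr2 and Retnlg) was 1510 and 509 RPKM in replicates 3 and 4. It was 40.8 and 8.45 RPKM in replicates 1 and 2 and 5.51 to 42.1 RPKM in healthy libraries. Between replicates 3 and 4 the order was opposite, since Sele and Selp were higher in replicate 4. The sum of 5 erythroid genes was likewise higher in replicates 3 and 4 (4510 and 1290 RPKM) than in 1 and 2 (177 and 353 RPKM). In healthy stromal replicates 1 to 4 that sum was 4.26, 437, 2310 and 243 RPKM, so tumor stromal replicate 4 lay inside the healthy range. Sele was at 0.346 to 1.69 RPKM in sorted tumor neutrophils, below its 16 and 33.9 RPKM in tumor stromal replicates 3 and 4. The part of neutrophil or erythroid RNA in the stromal levels of Sele and Selp was not tested.

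Lyve1 and Prox1, the lymphatic members, had fold changes of opposite sign. Lyve1 was at 0.149, 0.379, 1.5 and 1.95 RPKM in tumor stromal cells against 1.01 to 22.2 in healthy ones (log2 fold change -2.67, SE 1.01, adjusted p = 0.14), and replicates 3 and 4 overlapped with the lowest healthy library. Lyve1 relative to Pecam1 was 0.0534 and 0.0656 in tumor stromal replicates 3 and 4 and 0.032 to 1.15 in healthy stromal cells, which also overlapped. Prox1 was at 46, 39.4, 17.1 and 4.95 RPKM in tumor stromal cells against 0.82 to 3.87 in healthy ones, and here the groups did not overlap. Its log2 fold change was 2.98 (SE 0.69, adjusted p = 0.0486) without tumor stromal replicates 1 and 2, and 2.83 (SE 0.70, adjusted p = 0.0333) without healthy stromal replicate 4 as well.

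Prox1 was set against epithelial RNA in the same libraries. The ratio of Prox1 to Epcam was 0.903, 1.25, 1.34 and 0.913 in tumor stromal replicates 1 to 4, within the 0.589 to 1.46 of sorted tumor epithelial cells, and 0.254 to 23.7 in healthy stromal cells. The 4 tumor stromal libraries had the same order for Prox1 as for the epithelial share given above. The healthy stromal libraries did not. Replicate 1 there had the most Prox1, at 3.87 RPKM, with a share of 0.409%, while replicate 4 had 1.12 RPKM with 7.32%. The part of epithelial RNA in Prox1 was not tested. Mmrn1, another lymphatic gene, was called as lower in tumor stromal cells (log2 fold change -7.07, SE 1.80, adjusted p = 0.042). It had 0, 0, 15 and 16 counts in tumor stromal cells against 7387, 946, 116 and 44 in healthy ones, and its call was lost in 7 of 8 fits without 1 library, all but the one without healthy stromal replicate 4 (adjusted p from 0.0275 to 0.101 over the 8), and also without tumor stromal replicates 1 and 2 together (log2 fold change -6.09, adjusted p = 0.143). Flt4, the receptor of lymphatic growth factors, was at 4.92 and 3.31 RPKM in tumor stromal replicates 3 and 4 and at 0.821 to 5.34 RPKM in healthy libraries. Of the 23 other endothelial genes, Mmrn1 was the only one called by edgeR with all libraries. Flt4, Kdr, Tie1 and Selp are named in the text after their values were seen.

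**Figure D3:**
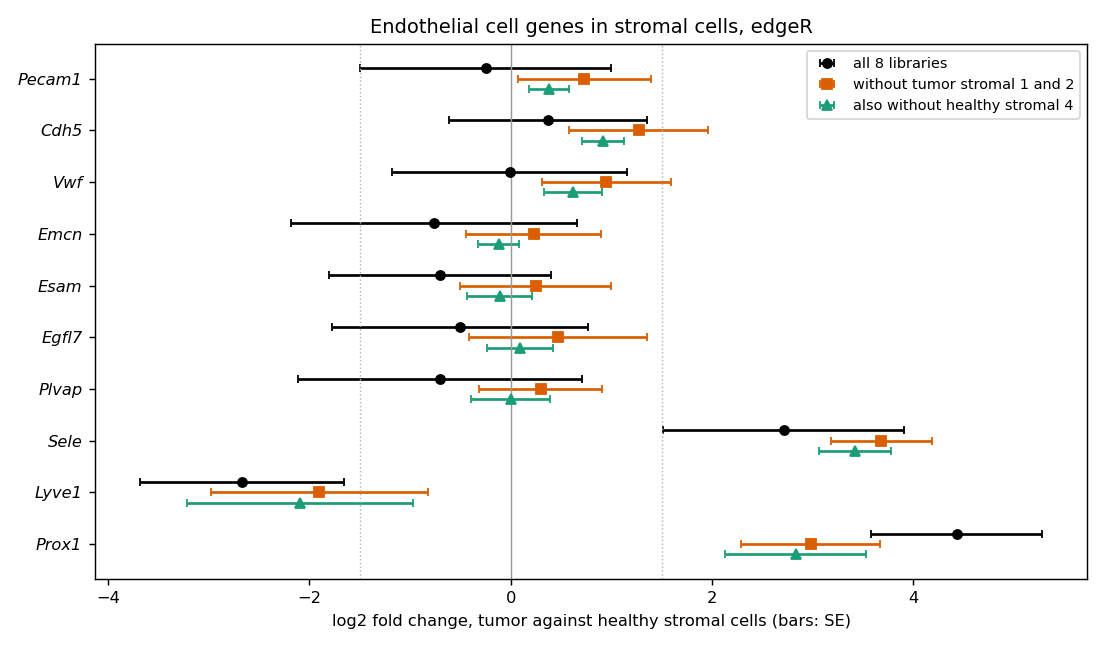
Log2 fold change of the 10 endothelial genes between tumor and healthy stromal cells by edgeR with all 8 libraries, without tumor stromal replicates 1 and 2, and also without healthy stromal replicate 4; bars are standard errors and dotted lines mark the fold threshold of 1.5. Sele lies at 2.71 to 3.68 and Prox1 at 2.83 to 4.43 in the 3 fits, Lyve1 at -2.67 to -1.90, and the other 7 genes lie within -0.76 to 1.27.

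In tumors, the vessel genes were again higher in stromal than in epithelial cells in replicates 3 and 4, but not in all libraries. With all 8, edgeR called 0 of 9 members tested (Plvap did not pass the filter on low counts), although 8 of 9 had an unadjusted p under 0.05, and DESeq2 called 7 and limma-voom 0. Over all genes edgeR called 0.0294% and DESeq2 7.32%. Log2 fold changes ran from -0.85 (Prox1) to 7.34 (Emcn), with adjusted p from 0.071 to 0.527, and the median was 4.77 against -0.02 over all genes. Without tumor stromal replicate 1 edgeR called 5 members and 4.72% of all genes, and without replicate 2 it called 7 members and 4.47% of all genes. Without both, all 10 were called, 9 as higher in stromal cells and Prox1 as lower (log2 fold change -2.31, SE 0.48, adjusted p = 0.00875), where 22.6% of all genes were called.

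Cdh5 and Prox1 were higher in tumor than in healthy epithelial cells. Cdh5 was at 3.94, 4.04, 4.22 and 4.26 RPKM (4.12 ± 0.149, mean ± SD, n = 4) in tumor epithelial cells, against 0.205, 0.00339, 0.0275 and 0.0788 RPKM in healthy epithelial cells, a log2 fold change of 4.62 (SE 0.95, adjusted p = 0.00563). Prox1 was at 49.1, 50.4, 47.8 and 42.5 RPKM (47.5 ± 3.45, n = 4) against 1.68, 0.251, 0.233 and 0.136 RPKM, a log2 fold change of 5.72 (SE 0.78, adjusted p = 5.57e-04). Neither gene overlapped between the groups, and the 4 tumor libraries lay close together for both. Besides its lymphatic role, Prox1 is known as a Wnt target in intestinal adenoma cells. These 2 of 6 members tested were called, as higher in the tumor, while 15.4% of all genes were called and 7.52% as higher in the tumor. The median log2 fold change was 0.54 for the members and -0.01 for all genes. Without healthy epithelial replicate 4, 4 members (Cdh5, Prox1, Vwf and Sele) and 8.93% of all genes were called as higher in the tumor.

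The other members were low in the same tumor epithelial libraries, each below 0.5 RPKM. Pecam1 was at 0.0324 to 0.311 RPKM, against 0.0131 to 0.313 in healthy epithelial cells (log2 fold change -0.49, SE 0.97, adjusted p = 0.769), while the mean RPKM was 0.164 in tumor and 0.114 in healthy cells, so its direction was not settled. Emcn had 4 to 25 counts, Plvap 0 to 4 counts and Egfl7 7 to 18 counts in a tumor epithelial library, too few for the test. Vwf was at 0.175 to 0.399 RPKM, above the healthy range of 0.00703 to 0.067 (log2 fold change 1.58, SE 0.87, adjusted p = 0.234), and Esam was at 0.0522 to 0.124 RPKM. Sele was at 0.0182 to 0.126 RPKM (5 to 32 counts), above the 0 to 0.00694 RPKM (at most 1 count) of healthy epithelial cells, and was not tested with all libraries. Lyve1 was at 0.0638 to 0.43 RPKM against 0.072 to 0.926.

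The ratio of Cdh5 to Emcn was higher in tumor epithelial than in healthy stromal cells, on 4 to 25 counts of Emcn in the former. Cdh5 was 80.7 to 540 times Emcn in tumor epithelial cells and 3.25 to 4.51 times Emcn in healthy stromal cells. In tumor stromal cells it was 101 and 107 times Emcn in replicates 1 and 2 and 7.47 and 8.03 times in replicates 3 and 4. Cdh5 relative to Prox1 was 0.0803, 0.0802, 0.0884 and 0.1 in tumor epithelial cells and 0.0846 and 0.0753 in tumor stromal replicates 1 and 2. Those 2 stromal libraries were thus close to the epithelial ones in both ratios, and replicates 3 and 4, at 3.14 and 12.3, were not.

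Of 14 other endothelial genes tested, 4 were called as higher in tumor epithelial cells and 0 as lower. Sox17, a transcription factor of arterial endothelium and endoderm, was at 6.09 to 10 RPKM against at most 0.254 (log2 fold change 5.41, SE 1.04, adjusted p = 0.00384). Ecscr, a surface protein of endothelial cells, was at 2.75 to 7.19 RPKM against at most 0.136 (4.95, SE 0.46, adjusted p = 6.02e-05). Sox18, another transcription factor of vessels, was at 1.3 to 2.51 RPKM against at most 0.189 (4.17, SE 0.66, adjusted p = 0.00129). Flt1, a VEGF receptor, was at 2.67 to 4.18 RPKM against at most 0.233 (3.60, SE 1.12, adjusted p = 0.0419), a call that was lost in 6 of 8 fits without 1 library (adjusted p up to 0.0894). For these 4 genes, as for Cdh5, tumor stromal replicates 1 and 2 kept levels at or near those of tumor epithelial cells: Sox17 was at 7.18 and 7.29 RPKM, Ecscr at 6.07 and 5.2, Sox18 at 2.4 and 2.35 and Flt1 at 3.54 and 3.69. In contrast, the VEGF receptor Kdr was at 0.0225 to 0.0623 RPKM and Tie1 at 0.00636 to 0.0221 RPKM in tumor epithelial cells.

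**Figure D4:**
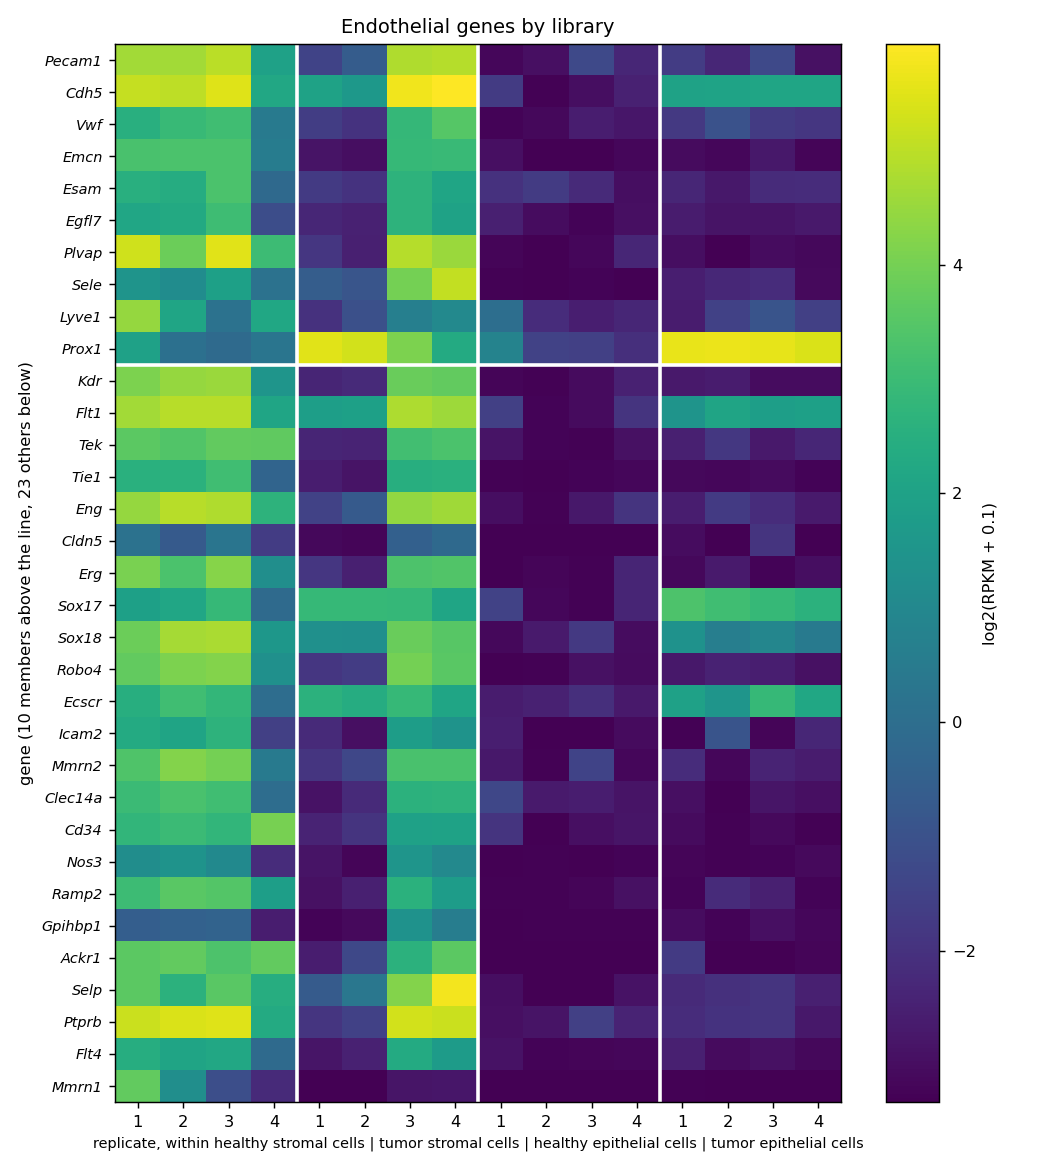
Level of the 10 members and 23 other endothelial genes as log2(RPKM + 0.1) in the 16 stromal and epithelial libraries, with white lines between the 4 groups. Cdh5, Prox1, Flt1, Sox17, Sox18 and Ecscr are bright in tumor epithelial libraries and in tumor stromal replicates 1 and 2, where genes such as Emcn, Kdr and Tie1 are dark.

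Cdh5 and Prox1 were also the members that were called between tumor and blood myeloid cells. In tumor neutrophils Prox1 was at 20.9, 3.36, 5.01 and 4.48 RPKM, against at most 0.0858 in neutrophils from the blood of such mice (log2 fold change 7.74, SE 0.79, adjusted p = 5.29e-04). Cdh5 was at 2.62, 0.156, 1.81 and 1.07 RPKM against at most 0.0751 (log2 fold change 4.95, SE 0.83, adjusted p = 0.00271). Both groups were apart for both genes, and replicate 1 was highest. These were 2 of 7 members tested, while 16.3% of all genes were called. The median was 1.32 for the members and 0.11 for all genes.

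In tumor monocytes Prox1 was at 0.14, 2.39, 4.37 and 2.66 RPKM, against at most 0.0559 in blood monocytes of the same kind of mice (log2 fold change 6.94, SE 1.09, adjusted p = 0.00176). Cdh5 was at 0.146, 0.27, 0.126 and 0.335 RPKM and had at most 2 counts in a blood monocyte library of tumor-bearing mice (adjusted p = 0.00132). Its 235 tumor and 4 blood counts gave a ratio of 51.5, with a 95% counting interval of 19.9 to 191. In blood monocytes of healthy mice Cdh5 was at 0.0823, 0.624, 0.111 and 0.0253 RPKM, which overlapped tumor monocytes. These were 2 of 5 members tested, while 11.7% of all genes were called, and the median was 1.21 against -0.03. A test of the interaction asked if the blood-to-tumor change was unequal in the myeloid types. There edgeR called 0 of 8 members and 3.95% of all genes, 1 member (Lyve1) had an unadjusted p under 0.05, and DESeq2 and limma-voom also called 0. The median was 0.92 for the members and 0.10 for all genes. Of 15 other endothelial genes, Flt1 was called (difference of log2 fold changes 4.18, SE 0.80, adjusted p = 0.00802).

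Epithelial RNA was present in these tumor myeloid libraries. The median of the 8 epithelial genes was at 76.8%, 12.7%, 17.5% and 4.95% of the tumor epithelial mean in tumor neutrophils and at 0.902%, 16.6%, 5.69% and 3.89% in tumor monocytes, against at most 0.208% in any blood library. The ratio of Prox1 to Epcam was 0.561 to 1.72 in tumor neutrophils and 0.345 to 1.24 in tumor monocytes, and 0.589 to 1.46 in tumor epithelial cells, and these ranges overlapped each other and the 0.331 to 7.68 of blood libraries, where both genes were near the floor. The ratio of Cdh5 to Prox1 was 0.125, 0.0465, 0.361 and 0.238 in tumor neutrophils and 1.04, 0.113, 0.0289 and 0.126 in tumor monocytes, a wider spread than the 0.0802 to 0.1 of tumor epithelial cells. Emcn was at most 0.112 RPKM in tumor neutrophils and 0.0331 in tumor monocytes. The part of epithelial or endothelial cells in these values was not tested. Of 10 other endothelial genes tested in neutrophils, Sox17 (log2 fold change 6.33, SE 0.88), Flt1 (3.99, SE 0.77) and Ptprb, a phosphatase of endothelial cells (3.63, SE 0.61), were called as higher in the tumor, and in monocytes edgeR called 0 of 7, with 1 at an unadjusted p under 0.05.

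Blood neutrophils had counts at Sele. Sele was at 3.91, 4.4, 4.23 and 4.83 RPKM (4.35 ± 0.382, n = 4) in blood neutrophils of healthy mice, above healthy stromal cells in every library, on 595 to 1189 counts. In blood neutrophils of tumor-bearing mice it was at 1.87, 1.38, 1.34 and 2.35 RPKM (1.73 ± 0.475, n = 4). The groups did not overlap. The log2 fold change was -1.30 (SE 0.24, adjusted p = 0.0139), smaller in size than the threshold of 1.5, so that edgeR called 0 of 7 members, as did DESeq2 and limma-voom, with 1 member at an unadjusted p under 0.05. Of all genes, 4.01% were called, and the median was -0.89 for the members and -0.01 for all genes. Of 10 other endothelial genes, Flt1 was called as lower (-2.18, SE 0.45, adjusted p = 0.021), a call lost in 5 of 8 fits without 1 library. Without healthy blood replicate 3 the adjusted p of Sele was 0.0508.

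Tumor neutrophils had 0.405, 1.69, 0.494 and 0.346 RPKM of Sele, and replicate 2 was inside the range of the blood of tumor-bearing mice (log2 fold change -0.89, SE 0.72, adjusted p = 0.431). Counts per gene do not show where in a gene the reads lie, and this was not analysed here. In monocytes Sele was at 0 to 0.652 RPKM in all 12 libraries.

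**Figure D5:**
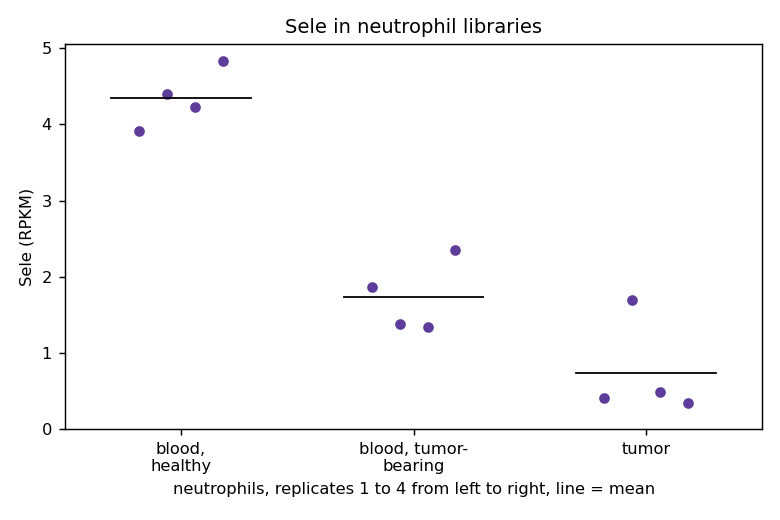
Sele (RPKM) in the 12 neutrophil libraries; each point is a library and the line is the group mean. Blood libraries lie at 3.91 to 4.83 in healthy mice and at 1.34 to 2.35 in tumor-bearing mice, with no overlap, and tumor libraries at 0.346 to 1.69.

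The remaining members were low in blood. Pecam1, which leukocytes and platelets also carry, was at 0.101 to 1.55 RPKM over the 16 blood libraries. In blood monocytes its log2 fold change between tumor-bearing and healthy mice was -1.15 (SE 0.51, adjusted p = 0.498), and edgeR called 0 of 4 members there, with 1 at an unadjusted p under 0.05 and 0 by DESeq2 or limma-voom, against 0.209% of all genes. The median was -0.47 for the members and 0.02 for all genes. Vwf, which platelets also store, was at 0.852 and 0.807 RPKM in healthy blood neutrophil replicates 1 and 2 and at 0.0385 and 0.0775 in replicates 3 and 4. The sum of 6 platelet genes (Ppbp, Pf4, Itga2b, Gp9, Gp1ba and Gp6) was 226 and 232 RPKM in the first pair and 2.22 and 10.6 in the second. In healthy blood monocytes Vwf was at 0.407, 0.00558, 0.612 and 0.0395 RPKM with platelet sums of 111, 112, 117 and 1.7, so replicate 2 did not follow them. The part of platelet RNA in Vwf was not tested. Emcn, Esam, Egfl7, Plvap and Lyve1 were at most 0.409 RPKM in any blood library.

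Over the 10 groups, the mean level of Pecam1, Vwf, Emcn, Esam, Egfl7, Plvap and Lyve1 was highest in healthy stromal cells and next in tumor stromal cells, 2 neighbors in the order that overlapped for each of these genes. For Cdh5 the order was tumor stromal (30.3 ± 31.2 RPKM, mean ± SD, n = 4), healthy stromal (28.9 ± 17), tumor epithelial (4.12) and tumor neutrophils (1.41 ± 1.05), where the tumor stromal libraries spanned the ranges of healthy stromal and tumor epithelial cells and each other pair of neighbors was apart. For Sele it was tumor stromal cells (12.7 ± 15.9), healthy blood neutrophils (4.35) and healthy stromal cells (2.41 ± 1.14), where the tumor stromal libraries spanned both other ranges and the other two did not overlap. For Prox1 it was tumor epithelial (47.5), tumor stromal (26.9 ± 19.2), tumor neutrophils (8.43 ± 8.33), tumor monocytes (2.39 ± 1.74), healthy stromal (1.69 ± 1.46) and healthy epithelial cells (0.575 ± 0.739), each overlapping the next, and no blood library exceeded 0.0858 RPKM.

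The genes whose level over the 40 libraries was most like that of a member included other genes of the endothelial list. Emcn was closest to Kdr (Pearson r of log2(RPKM + 1) = 0.997), Robo4 (0.995) and Cyyr1 (0.995), among 13958 genes compared. Pecam1 was closest to Gimap5 (0.976), Myct1 (0.975) and Kdr (0.973), and Vwf to Myct1 (0.976), Gimap5 (0.975) and Bcl6b (0.972). Esam was closest to Ablim3 (0.994), Tie1 (0.993) and Shank3 (0.991), Egfl7 to Arhgef15 (0.992), Esam (0.989) and Notch4 (0.988), and Plvap to Ptprm (0.990), Fgd5 (0.989) and Ldb2 (0.987). These 6 members are thus each matched at 0.97 or above.

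For the other 4 members the lists were as follows. Cdh5 was closest to Rasgrp3 (0.976), Lmcd1 (0.975) and Sox18 (0.975). Lyve1 was closest to Olfr558 (0.971), Prkg1 (0.953) and Slc35f1 (0.943). Prox1 was closest to the Wnt feedback genes Nkd1 (0.978) and Apcdd1 (0.975) and to Pla2g2a (0.975). Sele had the loosest matches, Gm16587 (0.88), Gm37248 (0.88) and Gm16548 (0.849), of which Gm16587 and Gm16548 lie 85.8 kb and 90.9 kb from it on chromosome 1. The libraries share cell types and sources, so these correlations are a description of the table and no test was made on them.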

How the data were processed

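RNA from 40 sorted mouse libraries had been amplified with the NuGEN Ovation kit and sequenced. The authors mapped reads to mm10 with Bowtie 2 on the HTSstation platform and deposited an expected count per gene (99.6% of nonzero values were not whole) and an RPKM value per gene, RPKM being the count scaled by gene length and library size. The annotation release, the handling of multiply mapped reads and the use of strand are not given in the sources used here. Expected counts were rounded and tested with edgeR 4.0.16 in R 4.3.3: TMM scaling, filterByExpr, the robust quasi-likelihood test on the libraries of the groups compared only, and Benjamini-Hochberg adjustment over all genes tested. A gene was called when its adjusted p was below 0.05 and its log2 fold change exceeded 1.5 in size, and a standard error is the absolute log2 fold change divided by the root of F. RPKM values are shown for description and were tested only in the limma alternatives named below.

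Alternatives were DESeq2 1.42.0, voom weights in limma 3.58.1, edgeR without the filter or the fold threshold or with RLE scaling, no mitochondrial genes, limma on log2(RPKM + 1) and log2(RPKM + 0.1), the replicate number as a block, and leaving out libraries; the fit without tumor stromal replicates 1 and 2 and healthy stromal replicate 4 was added after the data were seen. The code was tested on simulated data. Members and gene lists were chosen with earlier results of these data known. All 10 members are named; of 23 other endothelial genes, up to 4 called per direction by fold; and for likeness the 3 genes with the highest Pearson correlation, among genes with a mean of at least 1 RPKM in a group. Gene symbols came from GENCODE M21 (45143 of 45706 genes). Depth was 10717873 to 38002939 counts (median 16338416), and counting intervals cover counting error only. All 60 replicate pairs differed by at least 21.5 times the counting error, so no library counted double.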

Additional observations from a re-analysis of the deposited data

Results flagged for a closer look

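In 27 groups of 4 libraries with a mean of at least 1 RPKM for a member, 4 held a library whose gap to its nearest neighbor was too large a part of the range by Dixon's criterion at the 95% level, and chance alone gives about 1 in 20 groups. Emcn was at 1.36 RPKM in healthy stromal replicate 4, where the other 3 libraries were at 9.55 to 9.83. Lyve1 was at 22.2 RPKM in healthy stromal replicate 1, where the others were at 1.01 to 4.43. Prox1 was at 3.87 RPKM in the same library, where the others were at 0.82 to 1.12. Prox1 was at 20.9 RPKM in tumor neutrophil replicate 1, where the others were at 3.36 to 5.01 RPKM; the epithelial share of that library was 76.8%, against 4.95% to 17.5% in the others.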

How the results depend on the processing

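Between tumor and healthy stromal cells the number of members called was 2 with DESeq2 (Prox1 higher, Lyve1 lower), 2 without tumor stromal replicates 1 and 2, 2 without healthy stromal replicate 4 as well, and 0 to 1 without 1 library (0 without healthy stromal replicate 2). Of all genes, 8.4% were called with all libraries and 5.73% without tumor stromal replicates 1 and 2. Between tumor stromal and tumor epithelial cells the number of members called was 7 with DESeq2, 10 without tumor stromal replicates 1 and 2, and 0 to 7 without 1 library (5 without tumor stromal replicate 1, 7 without replicate 2). Of all genes, 0.0294% were called in the main fit, 7.32% with DESeq2 and 22.6% without both replicates. Without replicate 1 the share was 4.72%, and without replicate 2 it was 4.47%. Between tumor and healthy epithelial cells the number of members called was 2 to 4 without 1 library (4 without healthy epithelial replicate 4) and 3 with limma-voom. As higher in the tumor, 7.52% of all genes were called in the main fit and 8.93% without healthy epithelial replicate 4. Between healthy stromal and healthy epithelial cells the number of members called was 8 to 10 over all alternatives (8 with limma-voom, 10 with log2(RPKM + 0.1)), where the main fit called 30.9% of all genes. With limma on log2(RPKM + 1), 1 member was called in neutrophils and 1 in monocytes between tumor and blood. With no fold threshold, 1 member was called in blood neutrophils. For the other settings the share over all genes is not given here, so their counts cannot be set against it.

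Stromal vessel genes changed sign, with no call. Without tumor stromal replicates 1 and 2 the log2 fold change was 0.73 for Pecam1, 0.95 for Vwf, 0.23 for Emcn, 0.25 for Esam, 0.47 for Egfl7 and 0.30 for Plvap, and without healthy stromal replicate 4 as well it was 0.38 for Pecam1, 0.62 for Vwf and 0.09 for Egfl7. Cdh5 was at -0.28 with limma-voom, -0.59 with the replicate block, -0.55 with log2(RPKM + 1) and -0.64 with log2(RPKM + 0.1). Vwf was at 0.01 with DESeq2 and 0.01 with RLE size factors. Without 1 library, Pecam1 ran from -0.87 to 0.17, Cdh5 from -0.23 to 0.76 and Vwf from -0.95 to 0.40. The cause was not tested.

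With the replicate block, 1, 9, 0, 2, 2, 2, 0, 0 and 0 members were called in the 9 comparisons, the same counts as without it. Calls over all genes did change with the block, as given below, so these counts cannot be set against the shares of the main fits. Same-numbered libraries did not deviate together (correlations -0.256 to 0.251), so the numbers were not taken to pair them. Most numbers do not follow the animals of the titles. Libraries of the same animal on both sides of a comparison correlated at -0.14 to 0.0993, and the animal as a random block in limma-voom, added after the data were seen, called 0 members between tumor stromal and tumor epithelial cells (2 shared animals) and 0 in the interaction (5). Pooled libraries counted there as animals of their own, although a pooled blood neutrophil library shared a mouse with a blood monocyte library. With 1 shared animal, as in 3 comparisons, it could not be fitted. Over all genes the replicate block left 462 calls of 1602 between tumor and healthy stromal cells and 115 against 5 between tumor stromal and tumor epithelial cells, and fewer than without it in each of the other comparisons.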
